A study of Homo sapiens with 6 samples.

Results

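The genes described here are hypoxia factors and their non-glycolytic targets: the genes of the oxygen-labile transcription factor subunits (HIF1A and EPAS1), the genes of the prolyl hydroxylases that sense oxygen (EGLN1 and EGLN3), and the targets CA9, CA12, BNIP3, NDRG1 and ANGPTL4. They were chosen by symbol, and 9 of the 10 symbols in the rule were analysed, out of 19923 genes in the table. VEGFA was not analysed here. All 9 passed the filter on low counts, which 14086 genes passed. RNA sequencing compared 3 libraries of BT549 cells labelled control with 3 BT549 libraries whose treatment label is ENL. BT549 is an established human breast cancer cell line. What ENL stands for, its dose, the length of treatment, the vehicle and the oxygen tension are not in the labels, so ENL is used only as a group name. Separate cultures are not stated for the replicates either, and p-values cover only the spread among these 6 samples, which can be technical.

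In well-oxygenated cells, prolyl hydroxylases mark the alpha subunits of the hypoxia-inducible factors, and the von Hippel-Lindau ubiquitin ligase then sends them for destruction. When oxygen falls the alpha subunits persist, pair with ARNT and bind short hypoxia response elements beside genes for pH control, mitophagy, blood vessel growth and glycolysis. Because this control acts on protein stability, the mRNA level of an alpha subunit does not give the activity of the factor, which was not measured here. In breast cancer, CA9 is widely used as a tissue marker of hypoxia.

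Of the 9 genes, 5 fell in ENL-treated cells (CA9, ANGPTL4, EGLN1, NDRG1 and CA12), 1 rose (EPAS1) and 3 did not pass the test (HIF1A, EGLN3 and BNIP3). Over all genes tested, 18.4% fell and 20.0% rose in edgeR's quasi-likelihood test at a Benjamini-Hochberg adjusted p below 0.05, or 38.4% in either direction. The median log2 fold change was -0.60 over the 9 genes and -0.02 over all genes tested. All 3 ENL libraries lay below all 3 control libraries for 7 of the 9 genes and above them for 1, where 27.6% and 26.4% of all genes tested were separated in these directions, or 54.0% in either. In bulk samples a smaller share of cells expressing a gene and less RNA per cell cannot be told apart. Levels are given as CPM, estimated counts scaled to a common library size with trimmed mean factors (TMM).

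The libraries held 74457932 to 85310759 estimated counts. The second principal component, with 12.8% of the variance, set ENL library 3 (score -32.6) apart from ENL libraries 1 (9.8) and 2 (18.5). Ribosomal protein genes took 7.54% to 7.92% of the counts in control and 10.5% to 12.9% in ENL libraries. Under scaling by library totals alone the median change over all genes was -0.23 on the log2 scale. With the ribosomal protein genes left out of the fit, an alternative chosen after seeing the data, 1 of the 9 genes was higher and 5 lower, as with them. The labels give mammary gland epithelial tissue as the source. Of 5 epithelial markers, EPCAM and CDH1 stayed at or below 0.358 CPM and KRT19 at or below 1.013 CPM in every library, KRT18 lay between 21.7 and 31.3 CPM, and KRT8 rose from 13.2 to 18.0 CPM in control to 33.2 to 40.5 CPM in ENL libraries. Their sum was 37.2 to 48.8 CPM in control and 56.4 to 69.2 CPM in ENL. The 5 mesenchymal markers summed to 3208 to 3923 CPM in control and 5975 to 6884 CPM in ENL, and within them VIM rose from a mean of 2744 to 5949 CPM and SPARC fell from 331 to 92.7 CPM. The 4 immune markers summed to 55.4 to 69.8 CPM in control and 54.0 to 61.1 CPM in ENL, nearly all of it CD68 (54.0 to 68.3 CPM), with PTPRC at 1.197 CPM or less. The 4 endothelial markers summed to 5.46 to 9.01 CPM in control and 5.56 to 6.56 CPM in ENL, nearly all of it VWF, with CDH5 at 0 in all 6 libraries. The 3 fat cell markers summed to 0.296 to 0.526 CPM in control and 0.483 to 0.719 CPM in ENL, with ADIPOQ at 0 in all 6 libraries. The part of the epithelial and mesenchymal marker changes in the results was not tested.

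**Figure D1:**
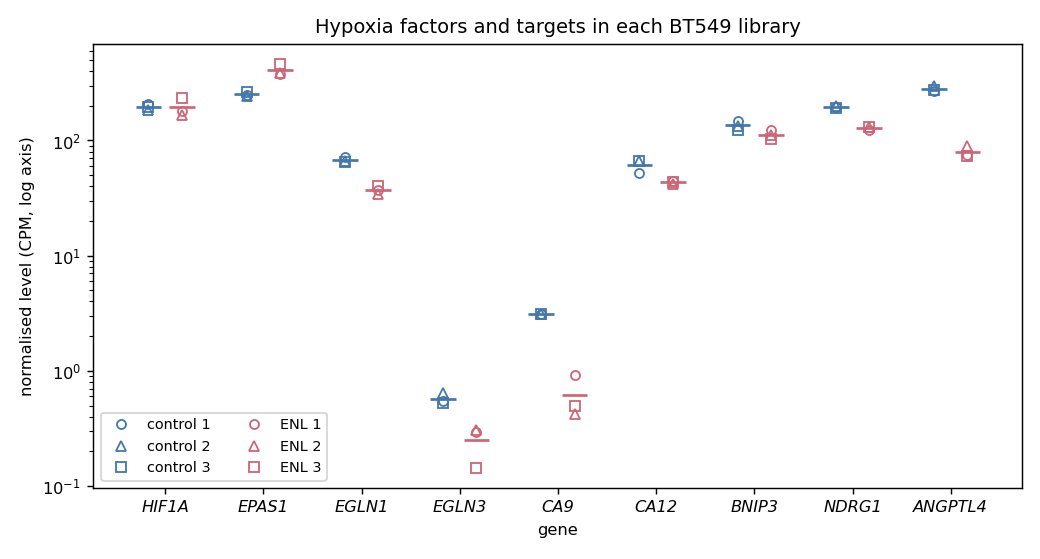
Normalised level (CPM, log axis) of each of the 9 genes in each library, with control libraries in blue, ENL libraries in red, symbols marking the library number and lines the group means. For EPAS1 the ENL libraries sit above the control libraries, for HIF1A the groups overlap, and for the other 7 genes all ENL libraries sit below all control libraries.

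Of the 2 alpha subunit genes, EPAS1 rose and HIF1A did not pass the test. EPAS1 (chromosome 2, 46293667 to 46386703, plus strand, GRCh38) encodes the subunit also called HIF-2 alpha, which is known from endothelial cells and from kidney cancer. Its level was 248.0, 241 and 263 CPM in control libraries 1, 2 and 3, and 376, 383 and 460 CPM in ENL libraries 1, 2 and 3. Every ENL library was higher than every control library, and ENL library 3 was the highest. EPAS1 rose by 0.70 ± 0.10 on the log2 scale (SE, n = 3 per group), a 1.62-fold higher mean (edgeR adjusted p = 0.00213).

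HIF1A (chromosome 14, 61695513 to 61748259, plus strand), the gene of the alpha subunit found in nearly all cells, did not pass the test. Its level was 206, 183 and 195 CPM in the control libraries and 182, 166 and 236 CPM in the ENL libraries. ENL libraries 1 and 2 were below all control libraries and ENL library 3 was above them, so that the groups overlapped. The means were 195 ± 11.2 CPM (SD, n = 3) in control and 195 ± 36.5 CPM in ENL, and the log2 fold change was -0.0026 ± 0.14 (edgeR adjusted p = 0.990). Without ENL library 3 it was -0.15 (adjusted p = 0.167). HIF1A shares 117 exon bases with the opposite-strand gene HIF1A-AS1 and 148 with AL137129.1, and neither of these was analysed here.

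Between genes, levels were compared after division by transcript length, and scaling to the same total in every library (length-scaled units). On this scale HIF1A and EPAS1 were close to each other in control cells, at 106 ± 8.79 and 104 ± 7.48 (mean ± SD, n = 3). The ratio of EPAS1 to HIF1A within a library does not depend on how libraries are scaled. It was 0.923, 1.01 and 1.03 in control libraries 1, 2 and 3 and 1.58, 1.76 and 1.49 in ENL libraries 1, 2 and 3. All ENL ratios were above all control ratios, with means of 0.987 ± 0.0567 and 1.61 ± 0.138. A two-sided exact permutation test gave p = 0.1, the smallest that 3 against 3 libraries allow, or 0.133 adjusted over the 4 gene ratios computed, which were chosen after values had been seen.

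**Figure D2:**
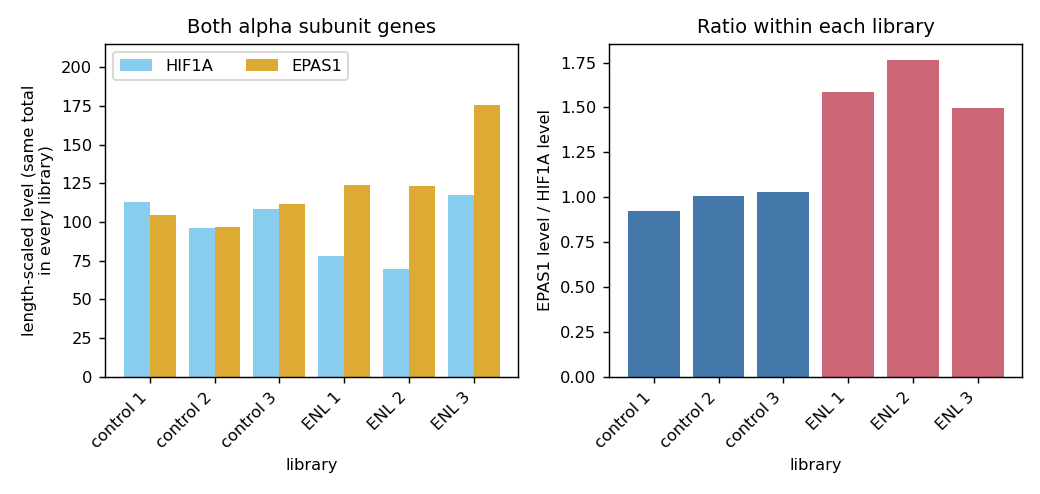
Left, length-scaled level of HIF1A and EPAS1 in each library; right, EPAS1 level divided by HIF1A level in the same library, with control libraries in blue and ENL libraries in red. The control ratios lie between 0.923 and 1.03 and the ENL ratios between 1.49 and 1.76.

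Both prolyl hydroxylase genes had lower values in ENL libraries, and 1 of them passed the test. EGLN1 (chromosome 1, 231363751 to 231425044, minus strand) encodes PHD2, the main oxygen sensor acting on the alpha subunits, and is itself induced by hypoxia. It measured 71.2, 66.0 and 64.4 CPM in control and 37.2, 34.6 and 40.2 CPM in ENL libraries. The groups were far apart, with every ENL value below every control value. EGLN1 fell by 0.85 ± 0.09 on the log2 scale, to a mean 44.5% lower than in control (edgeR adjusted p = 0.000779).

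EGLN3 (chromosome 14, 33924231 to 34462774, minus strand) encodes PHD3, the hydroxylase whose gene is usually the most strongly induced by hypoxia. Its level was very low, with 48, 52 and 45 estimated counts in control libraries and 20, 21 and 12 in ENL libraries. From the pattern of low values, 1 sequenced fragment was taken to be worth about 4 of these counts. The groups did not overlap (0.529 to 0.642 CPM in control and 0.144 to 0.308 CPM in ENL). The log2 fold change was -1.21 ± 0.47 with an edgeR adjusted p of 0.0840. The ratio of EGLN3 to EGLN1 within libraries was 0.0192 to 0.0242 in control and 0.00896 to 0.0222 in ENL, and these ranges overlap (exact permutation p = 0.5, two-sided, 0.5 adjusted over the 4 ratios).

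The hypoxia-inducible factors bind DNA at elements with the core letters ACGTG or GCGTG. RefSeq promoter entries (GRCh38.p14) matched 8 of the 9 genes, all but NDRG1. The 250 bases before the start site were searched for both words on both strands. At least 1 match was found in 7 of the 9 windows, which include 2 for HIF1A, and in 43.2% of 35116 windows of all genes. The word ACGTG alone was found for 4 genes, and in 18.5% of all windows. These 4 windows are shown because they hold the core with A, with matches to either word on either strand in capitals.
CA9, chr9:35673678-35673927, plus strand: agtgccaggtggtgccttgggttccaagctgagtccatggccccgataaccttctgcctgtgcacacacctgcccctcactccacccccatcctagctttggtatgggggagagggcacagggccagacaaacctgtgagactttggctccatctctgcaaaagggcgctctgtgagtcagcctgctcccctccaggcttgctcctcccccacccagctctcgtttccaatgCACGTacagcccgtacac
ANGPTL4, chr19:8363905-8364154, plus strand: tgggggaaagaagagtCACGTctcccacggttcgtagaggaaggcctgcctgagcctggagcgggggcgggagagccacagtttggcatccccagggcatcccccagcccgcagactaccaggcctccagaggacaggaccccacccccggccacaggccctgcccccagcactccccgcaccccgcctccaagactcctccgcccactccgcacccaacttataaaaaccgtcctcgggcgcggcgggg
EGLN1, chr1:231422288-231422537, minus strand: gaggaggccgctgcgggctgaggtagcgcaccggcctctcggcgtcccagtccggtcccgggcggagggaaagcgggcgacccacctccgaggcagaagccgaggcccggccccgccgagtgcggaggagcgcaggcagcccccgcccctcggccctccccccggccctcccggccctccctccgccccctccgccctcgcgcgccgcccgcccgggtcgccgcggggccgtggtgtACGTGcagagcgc
BNIP3, chr10:131981924-131982173, minus strand: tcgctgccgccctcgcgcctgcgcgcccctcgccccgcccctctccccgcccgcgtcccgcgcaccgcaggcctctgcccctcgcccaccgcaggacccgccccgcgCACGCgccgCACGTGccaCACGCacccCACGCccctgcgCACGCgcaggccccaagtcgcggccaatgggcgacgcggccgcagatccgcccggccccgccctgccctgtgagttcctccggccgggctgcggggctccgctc
The match in CA9 begins 18 bases before the start, on the minus strand of the printed sequence, that in ANGPTL4 234 bases before it on the same strand, and that in EGLN1 13 bases before it on the plus strand. BNIP3 has 6 matches, of which a pair overlap in the palindrome CACGTG. A match is a description of the letters and does not show binding. The count for BNIP3 takes the palindrome once on each strand, and CA9, ANGPTL4 and EGLN1 had 1 match each. Whether the number of matches relates to the size of change was not tested.

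The carbonic anhydrases CA9 and CA12 are membrane enzymes that hydrate carbon dioxide outside the cell and help tumour cells control their pH. CA9 (chromosome 9, 35673856 to 35681159, plus strand) was low in control cells, at 3.12, 3.12 and 3.09 CPM, and lower still in ENL libraries, at 0.923, 0.426 and 0.494 CPM. The 3 control values were nearly the same, and ENL library 1 was the highest of its group. CA9 fell by 2.34 ± 0.33 on the log2 scale, a mean 5.07-fold lower than in control (edgeR adjusted p = 0.00214). The ENL values rest on 63, 29 and 41 estimated counts. CA9 shares 643 exon bases with ARHGEF39, a gene on the opposite strand, which was itself lower in ENL, with 17.01 CPM in control and 11.6 CPM in ENL (log2 fold change -0.55 ± 0.12, edgeR adjusted p = 0.0106). No source used here says whether reads were assigned by strand, which leaves CA9 uncertain. For the sum of both genes the log2 fold change was -0.72 (adjusted p = 0.00336).

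CA12 (chromosome 15, 63321378 to 63382161, minus strand) was the more abundant of the pair. It measured 52.6, 66.9 and 65.9 CPM in control and 44.5, 41.8 and 43.8 CPM in ENL libraries. Control library 1 was the lowest of its group, and still above all ENL libraries. CA12 fell by 0.51 ± 0.11 on the log2 scale, to a mean 29.8% lower (edgeR adjusted p = 0.0119). Its call was lost without control library 3 (adjusted p = 0.0506). The length-scaled ratio of CA9 to CA12 was 0.235, 0.185 and 0.186 in control and 0.0822, 0.0404 and 0.0447 in ENL libraries. All ENL ratios were below all control ratios (exact permutation p = 0.1, two-sided, the smallest possible, 0.133 adjusted over the 4 ratios).

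ANGPTL4 (chromosome 19, 8363289 to 8374373, plus strand) encodes a secreted inhibitor of lipoprotein lipase that is induced by hypoxia, by fatty acids through PPAR receptors and by glucocorticoids. It measured 269.6, 297 and 276 CPM in control libraries and 75.4, 90.4 and 72.8 CPM in ENL libraries. The groups were widely separated, and no control value came near an ENL value. ANGPTL4 fell by 1.82 ± 0.10 on the log2 scale, a mean 3.53-fold lower (edgeR adjusted p = 6.44e-05). Its log2 fold change ranked at the 3.07th percentile of all genes tested, and that of CA9 at the 1.75th.

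NDRG1 (chromosome 8, 133237171 to 133302022, minus strand) encodes a stress-responsive cytoplasmic protein known as a suppressor of metastasis and as a hypoxia and iron-depletion target. Its levels were tight in both groups, at 195, 198 and 192 CPM in control and 124, 129.9 and 131 CPM in ENL libraries. No values overlapped. NDRG1 fell by 0.60 ± 0.07 on the log2 scale, to a mean 34.2% lower (edgeR adjusted p = 0.000764). The length-scaled ratio of ANGPTL4 to NDRG1 was 2.76 to 2.99 in control and 1.11 to 1.39 in ENL libraries (exact permutation p = 0.1, two-sided, the smallest possible, 0.133 adjusted over the 4 ratios).

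BNIP3 (chromosome 10, 131966455 to 131982013, minus strand) encodes a mitochondrial outer membrane protein that recruits the autophagy machinery. It measured 147, 135 and 124 CPM in control and 122, 111 and 103 CPM in ENL libraries. The groups did not overlap, but the lowest control library and the highest ENL library were close. BNIP3 did not pass the test, with a log2 fold change of -0.27 ± 0.10 (edgeR adjusted p = 0.0720). It passed under scaling by library totals alone (-0.48, adjusted p = 0.00744) and under upper-quartile scaling (-0.35, adjusted p = 0.0313).

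**Figure D3:**
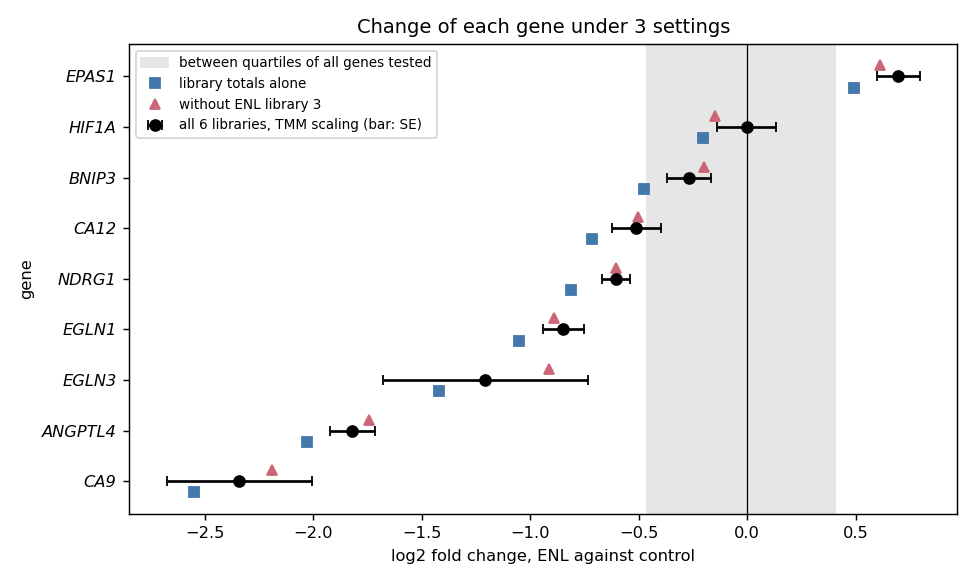
Log2 fold change of each gene, ENL against control, with all 6 libraries on the trimmed mean scale (black, bar 1 SE), with library totals alone (blue squares) and without ENL library 3 (red triangles); the grey band runs between the quartiles of all genes tested, from -0.46 to 0.41. CA9 and ANGPTL4 lie farthest to the left, EPAS1 stays on the right of 0 in all 3 settings, and HIF1A lies at or left of 0.

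Per transcript length, the order of the 9 genes in control cells ran from ANGPTL4 (320 ± 7.64 length-scaled units, mean ± SD, n = 3) through NDRG1 (111 ± 1.91), HIF1A, EPAS1 and BNIP3 (94.6 ± 8.65) to CA12 (20.6 ± 2.47), EGLN1 (20.3 ± 1.33), CA9 (4.12 ± 0.113) and EGLN3 (0.431 ± 0.0314). Each of NDRG1, HIF1A, EPAS1 and BNIP3 overlapped its neighbour in this order, and so did CA12 and EGLN1. These units carry no trimmed mean factor, so they rank genes within a group and do not give changes between the groups. In ENL cells EPAS1 came first at 141 ± 30.2, and all its values were above those of HIF1A (88.5 ± 25.6), the next. ANGPTL4 (74.9 ± 5.96), BNIP3 (64.9 ± 3.99) and NDRG1 (60.9 ± 7.01) followed. HIF1A overlapped ANGPTL4, BNIP3 overlapped NDRG1, and BNIP3 lay below ANGPTL4 in all libraries by a narrow margin (67.8 against 68.3 at the nearest). CA12 (12.0 ± 1.36) and EGLN1 (9.40 ± 1.60) again overlapped, above CA9 (0.670 ± 0.273) and EGLN3 (0.152 ± 0.0446).

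Of 17 tested genes of oxygen sensing and HIF partners, 4 rose, 3 fell and 10 did not pass, beside 20.0% higher and 18.4% lower over all genes tested, so that these shares are near the background. The list's median log2 fold change was 0.12, but -0.01 without control library 1, 0.03 without control library 3, 0.05 without ENL library 1, 0.01 without ENL library 2, 0.04 with upper-quartile scaling and -0.08 with library totals alone. ARNT, the obligate partner of both alpha subunits, rose from 41.3 ± 9.44 to 89.5 ± 15.7 CPM, by 1.11 ± 0.20 on the log2 scale (edgeR adjusted p = 0.00594). HIF1AN, the asparagine hydroxylase that blocks coactivator binding, fell from 45.2 ± 3.11 to 31.9 ± 2.38 CPM, by 0.50 ± 0.10 on the log2 scale (edgeR adjusted p = 0.00785), and its exons overlap those of the opposite-strand gene NDUFB8. SIAH2 and SIAH1, ubiquitin ligases that act on prolyl hydroxylases, rose by 1.08 ± 0.08 and 0.49 ± 0.12, and CITED4, a transcriptional coregulator, rose by 1.31 ± 0.17. CUL2 and RBX1, subunits of the von Hippel-Lindau ligase, fell by 0.72 ± 0.14 and 0.50 ± 0.14. VHL itself had a log2 fold change of 0.24 ± 0.17 (edgeR adjusted p = 0.296). EGLN2, the remaining prolyl hydroxylase gene of this class, had one of 0.14 ± 0.29 (edgeR adjusted p = 0.736), and it shares 2012 exon bases with the readthrough gene RAB4B-EGLN2. SIAH1 shares 1793 exon bases with the opposite-strand gene LONP2, and SIAH2 shares 106 with SIAH2-AS1. The call of SIAH1 was lost without control library 1 (adjusted p = 0.0527), control library 2 (0.0668), control library 3 (0.0608) or ENL library 1 (0.0613), with library totals alone (0.147), and in the glmTreat test against a 1.2-fold change (0.0712). That of RBX1 was lost without control library 1 (0.0804), control library 2 (0.0992), ENL library 1 (0.0586) or ENL library 3 (0.0574), and in the glmTreat test (0.0937).

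In the families of the targets, the counts were small and are read against the 20.0% higher and 18.4% lower of all genes tested. In the VEGF family and its receptors 1 gene rose and 1 fell. PGF, the placental growth factor gene, fell from 27.2 ± 0.565 to 11.9 ± 1.33 CPM, by 1.19 ± 0.12 on the log2 scale, and VEGFB rose by 0.60 ± 0.09 (edgeR adjusted p = 0.000480 and 0.00286). The other 5 of 7 tested genes did not pass. Of 10 tested carbonic anhydrases and pH regulators 3 fell and 1 rose. CA4, a membrane-anchored carbonic anhydrase gene, fell from 7.20 ± 0.150 to 1.06 ± 0.131 CPM (log2 fold change -2.77 ± 0.17, edgeR adjusted p = 8.31e-05). SLC16A1, a lactate transporter gene, fell by 0.79 ± 0.08, CA14 fell by 1.19 ± 0.38 and the mitochondrial CA5B rose by 0.65 ± 0.12. CA5B shares 1874 exon bases with the opposite-strand gene INE2, and SLC16A1 shares 175 with SLC16A1-AS1. CA14 was below 1 CPM on average in both groups, and its call was lost with any 1 of the 6 libraries left out: adjusted p = 0.133, 0.0505 and 0.159 without control libraries 1, 2 and 3, and 0.108, 0.0595 and 0.0989 without ENL libraries 1, 2 and 3. It was also lost with limma-voom (0.0570), without a filter on low counts (0.0586), with the replicate number as a block (0.117) and in the glmTreat test against a 1.2-fold change (0.0719). Without ENL library 2 or without ENL library 3, 2 genes of this list rose instead of 1.

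Of 7 tested mitophagy genes, 1 fell and 0 rose, beside 18.4% lower and 20.0% higher over all genes tested. PINK1, a kinase gene of the parallel mitophagy pathway, fell by 0.42 ± 0.10 on the log2 scale, and its exons share 1907 bases with PINK1-AS. Its call was lost without control library 2 (adjusted p = 0.0570) or control library 3 (0.0573), and in the glmTreat test against a 1.2-fold change (0.0775). Without ENL library 3, 1 mitophagy gene rose. BNIP3L, the close relative of BNIP3, had 178 ± 14.2 CPM in control and 175 ± 9.11 CPM in ENL (log2 fold change -0.02 ± 0.09, edgeR adjusted p = 0.845). It shares 330 exon bases with the opposite-strand gene PNMA2. Of the relatives of NDRG1, NDRG3 fell by 0.65 ± 0.20 on the log2 scale and NDRG4 did not pass. The NDRG3 call was lost without control library 1 (adjusted p = 0.103), control library 2 (0.0713), control library 3 (0.106) or ENL library 2 (0.0863), and in the glmTreat test (0.0886).

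The list of angiopoietins and angiopoietin-like genes held 5 tested genes, of which 2 rose, 0 fell and 3 did not pass. Over all genes tested 20.0% rose and 18.4% fell. Only 1 gene of the list rose without control library 2 or 3, or without ENL library 2 or 3. The same held with the replicate number as a block and with counts divided by 4. ANGPTL8, a relative of ANGPTL4 that encodes a circulating regulator of lipoprotein lipase, rose at a very low level. It had 6, 2 and 2 estimated counts in control and 46, 52 and 64 in ENL libraries (edgeR adjusted p = 0.00212). Its log2 fold change was 4.18 ± 0.59, from a mean of 0.0389 CPM in control to 0.736 CPM in ENL. Divided by 4 and rounded to whole fragments, the group sums were 2 against 40, a ratio of 23.1. The 95% interval of 5.99 to 197 covers counting error only, and rounding so small a control sum raised the ratio. The groups were far apart, with every ENL library above every control library. ANGPTL8 shares 350 exon bases with the opposite-strand gene DOCK6, which leaves so low a gene uncertain.

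Of 40 tested genes in a wider list of non-glycolytic HIF targets 11 rose and 12 fell, beside 20.0% and 18.4% of all genes tested. The list's median log2 fold change was -0.16, but -0.02 without control library 2, -0.10 without ENL library 1, -0.05 with limma-voom, 0 with counts divided by 4 and -0.36 with library totals alone. The risers included BHLHE40, a transcriptional repressor gene, from 43.1 ± 3.16 to 275 ± 3.22 CPM (by 2.67 ± 0.08 on the log2 scale, edgeR adjusted p = 1.27e-05). ADM, the vasodilator peptide adrenomedullin gene, rose by 1.92 ± 0.09 on the log2 scale, PPP1R3C, a glycogen-targeting phosphatase subunit gene, by 1.72 ± 0.09 and DDIT4, an inhibitor of mTOR signalling, by 1.19 ± 0.08. Among the genes that fell, STC1, the stanniocalcin-1 gene, went from 541 ± 4.13 to 140.2 ± 15.2 CPM (log2 fold change -1.95 ± 0.10, edgeR adjusted p = 3.7e-05). The transferrin receptor gene TFRC fell by 1.48 ± 0.13 on the log2 scale, NT5E, the gene of the ectonucleotidase CD73, by 0.99 ± 0.09 and LOXL2, a collagen crosslinking enzyme gene, by 0.91 ± 0.07. DDIT4 shares 847 exon bases with DDIT4-AS1, and LOXL2 shares 178 with AC090197.1 and 120 with ENTPD4.

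The glycolytic targets, set beside these genes for comparison, had 1 riser and 10 genes that fell among 22 tested. Over all genes tested 20.0% rose and 18.4% fell. The median log2 fold change of the glycolytic list was -0.22. PGK1 led the falls (-1.86 ± 0.07), followed by adjusted p by PGAM1 (-0.81 ± 0.08), the lactate exporter gene SLC16A3 (-0.86 ± 0.09) and PDK1 (-0.86 ± 0.11), and HK2, a hexokinase gene, rose by 0.70 ± 0.11. Without ENL library 3, 2 genes rose and 9 fell. SLC16A3 shares 482 exon bases with the opposite-strand gene CSNK1D, and PDK1 shares 445 with AC078883.1. The pathway lists together held 110 tested genes, of which 20 rose and 31 fell, beside the same 20.0% and 18.4%. Their median was -0.12. Whether the lists differ from each other or from other genes was not tested.

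**Figure D4:**
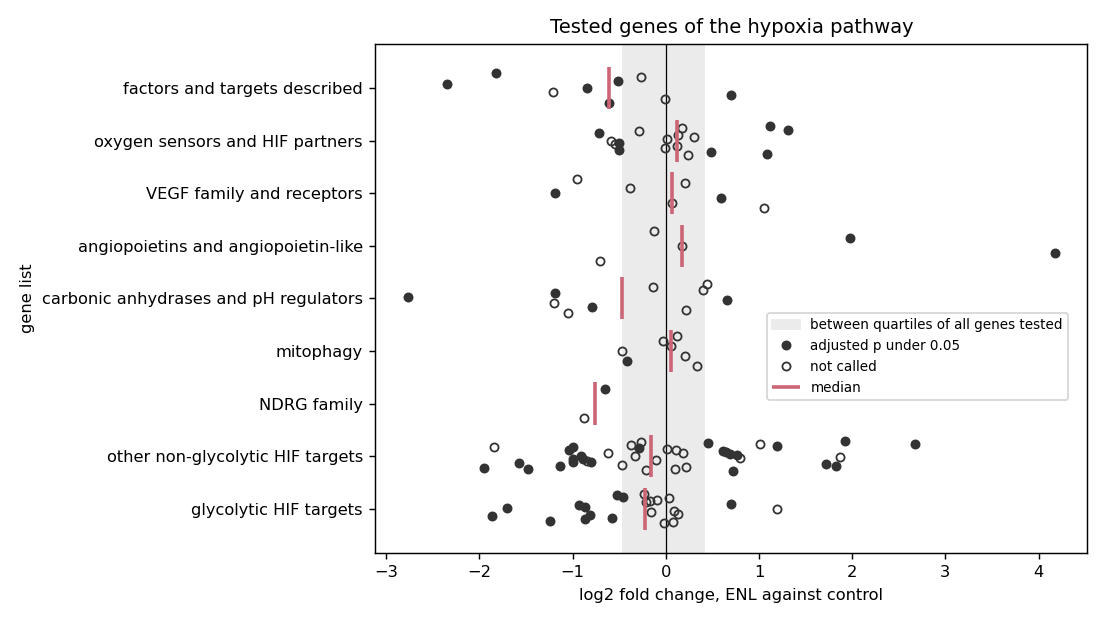
Log2 fold change, ENL against control, of every tested gene of each list, with filled points for an adjusted p under 0.05, open points for genes not called and red lines for list medians; the grey band runs between the quartiles of all genes tested. The 9 genes described have a median of -0.60. The wider non-glycolytic list has 11 higher and 12 lower among 40 genes, and 10 of the 22 glycolytic genes fell. Over all genes tested 20.0% were higher and 18.4% lower.

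Of the listed pathway genes, those whose CPM followed HIF1A most closely over the 6 libraries were SLC4A7 (Pearson r = 0.842), TEK (0.800) and EP300 (0.739), on the log2(CPM + 1) scale. These correlations are descriptions over 6 libraries that share the 2 groups and the library scaling. For HIF1A and each of these genes, ENL library 3 was the highest ENL library. TEK was near the floor, at 0.161 to 0.778 CPM.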

How the data were processed

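RNA sequencing of 6 BT549 libraries was analysed from 1 deposited table. Per the submitters' processing notes, FastQC, STAR, StringTie and DESeq2 were used with build hg38; no version, parameter, annotation or strand setting is named in the labels. The authors deposited an estimated count per gene and library as whole numbers. From 70.8% to 73.1% of values from 4 to 43 lay at a multiple of 4 or 1 above it. As many whole numbers in this range lie at these positions as away from them, so much of this share would arise without any pattern. From this pattern 1 fragment was taken to be worth about 4 units. The other values do not follow it, so this figure is approximate. On that reading, low genes carry more counting error than their size shows. Columns were matched to samples by name. No replicate pair agreed within sampling noise (chi-square per degree of freedom at least 20.2, on counts divided by 4).

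The test was edgeR's quasi-likelihood F test (edgeR 4.0.16, R 4.3.3; robust glmQLFit, two-sided, group alone) after TMM scaling and a filterByExpr minimum of 10 counts, with Benjamini-Hochberg adjustment over all genes tested. Nothing needed rounding. Positions, exon overlaps and the longest transcript come from GENCODE 29 (GRCh38, 99.4% of symbols matched), counted from 1, and promoters from RefSeq (GRCh38.p14). The fit was checked on 5 simulated data sets, in which 10.8% of calls were false, above the 0.05 that the adjusted p threshold aims at. It recovered 10% of 1.5-fold changes and 50.8% of 2-fold changes there. The simulations left most genes unchanged, so these shares do not carry over directly to these data. The excess of false calls makes calls close to the threshold less certain. Alternatives used limma 3.58.1, DESeq2 1.42.0 and the settings named under sensitivity. The 9 genes and the lists were chosen with earlier results of these data known. From each list the text names up to 4 called genes in each direction, by smallest adjusted p, and always ARNT, EGLN2, HIF1AN, VHL and BNIP3L; NDRG4, the genes beside HIF1A and overlapping neighbours were named outside that rule. Of the genes that the rule names, 1 is not reported here.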

Additional observations from a re-analysis of the deposited data

How the results depend on the processing

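The counts of the 9 genes called stayed at 1 higher and between 4 and 7 lower under 18 other settings. EPAS1 stayed higher, and EGLN1, NDRG1, ANGPTL4 and CA9 lower, past the threshold in each of these settings that tested them; CA9 was not tested with a minimum of 10 CPM in 3 libraries. CA12 lost its call in 1 setting, without control library 3. EGLN3 passed with library totals alone (adjusted p = 0.0428) and with counts divided by 4 (0.0438), and BNIP3 also with a minimum of 10 CPM (0.0450). Over all genes, scaling by library totals found 1804 genes higher and 3996 lower, and glmTreat against a 1.2-fold change 1713 lower genes; the first changes the scale and the second the size of change tested. With 1 library left out, 2072 to 3156 genes were higher and 1743 to 2877 lower. Without 1 library, log2 fold changes ran from -0.15 to 0.10 for HIF1A, from -0.0644 to 0.0444 for BNIP3L and from -0.0241 to 0.514 for EGLN2. Correcting for length and GC of transcripts, chosen after seeing the data, turned HIF1A to 0.0406 and BNIP3L to 0.0182, leaving out ribosomal protein genes, also chosen after seeing the data, turned HIF1A to 0.0132, and library totals alone turned EGLN2 to -0.0724. None of these 3 genes was called in any setting, and the cause was not tested. The replicate numbers were not taken as pairs, since deviations of same-numbered libraries correlated at 0.044, 0.128 and 0.112, although each library correlated best with its own number. With the replicate number as a block, 2631 genes were higher and 2310 lower, 6 of the 9 genes were lower and 1 higher, and BNIP3 had an adjusted p of 0.0329. The counting depth limits EGLN3 and CA9, at 12 to 63 estimated counts in ENL libraries.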
